A study of Mus musculus with 6 samples.

Results

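A total of 50 genes were nearly absent from the libraries of one mouse strain and well counted in those of the other. They were chosen from their raw counts, scaled by the library total (CPM). The mean CPM of one strain had to be more than 32 times that of the other, with at least 50 raw counts in each library of the higher strain. Genes on chromosomes X and Y were left out, as were symbols starting with Igh, Igk, Igl, H2- or Trim30. Of 55401 gene identifiers, 14572 reached the count limit in one strain or the other, and 76 of these (0.522%) passed the fold. The exclusions removed 26 of the 76, of which 20 were immunoglobulin genes, 2 were H2 genes and 4 lay on X or Y. Of the remaining 50 genes, 18 were higher in MRL/lpr and 32 were higher in MRL/mpj. Since these counts chose the genes, the strain difference of the genes themselves is described here without a test.

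The libraries came from microglia, the resident macrophages of the brain, of untreated 6-week-old mice. MRL/lpr animals have the lpr allele of Fas, a death receptor gene, and develop lupus-like disease, and MRL/mpj mice are the control strain without it. The methods name the strains MRL/MpJ-Faslpr and MRL/MpJ, so by name they share the MRL/MpJ background. Cells were taken from dissociated brain on a density gradient and selected for the myeloid surface protein CD11b, and 3 libraries were made for each strain. A figure legend of the study gives 3 mice per strain for these data, and the labels do not tie libraries to animals. The methods name female mice of both strains, and the labels give no sex. All comparisons below set MRL/lpr against MRL/mpj at this 1 age.

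Total counts ran from 45481609 to 49846634 per library. Of 19554 genes that passed a filter on low counts, 1630 (8.34%) differed between the strains at a log2 fold change of at least 1 in either direction and an adjusted p under 0.05 (edgeR quasi-likelihood test with Benjamini-Hochberg adjustment, called below). Of the tested genes, 4.67% were called higher in MRL/lpr and 3.66% were called lower. With scaling by library size only, in place of edgeR's TMM scaling, 766 genes were higher and 932 lower, against 914 and 716, and the median log2 fold change of tested genes moved from -0.01 to -0.13. All 10 microglial markers examined were detected in every library, and of these only Fcrls was called, lower in MRL/lpr. Cx3cr1 stood at 2753 CPM in MRL/lpr replicate 2 and at 221 and 227 CPM in the other MRL/lpr libraries. Xist, the X-inactivation transcript, had 8886 to 11319 counts in MRL/lpr against 27 to 38 in MRL/mpj. The MRL/mpj level goes against the stated female sex. The Xist difference follows strain in every library, so its part in the genes below was not tested and cannot be told apart from strain.

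Near-absence of a transcript in one strain is a familiar pattern between inbred strains of different background. Such strains are known to differ in gene copies, in deletions and in regulatory sequence, above all in clusters of recently duplicated genes. The strains here share a background by name, and their genomes were not compared. Induced genes, such as those that answer to interferon, are known to be low in unstimulated cells. In bulk libraries, fewer cells of a type and less RNA per cell cannot be told apart.

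Of the 50 genes, 36 were protein coding, 9 among those higher in MRL/lpr and 27 among those higher in MRL/mpj. The others were pseudogenes, noncoding RNAs and 3 identifiers that had no match in the GENCODE M21 annotation. The chromosome of those 3 is unknown here, so the exclusion of X and Y could not be applied to them. All 50 passed the filter on low counts. No count at all was found in any library of the lower strain for 13 genes, 4 higher in MRL/lpr and 9 higher in MRL/mpj. For 22 genes, all residual counts came from 1 library, and without it the lower strain is at 0, so their folds rest on that library. For 6 of the genes higher in MRL/mpj and 4 of those higher in MRL/lpr, each library of the lower strain held at least 1 count. Most residual counts were very small. Of 37 values between 1 and 12, 22 were exactly 4, 8 or 12. A fold against a strain at 0 is given as a lower bound, with 3 counts per library as the floor. Intervals of folds are exact binomial 95% intervals of summed counts, and they cover counting error only and, with counts piled at multiples of 4, are too narrow.

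**Figure D1:**
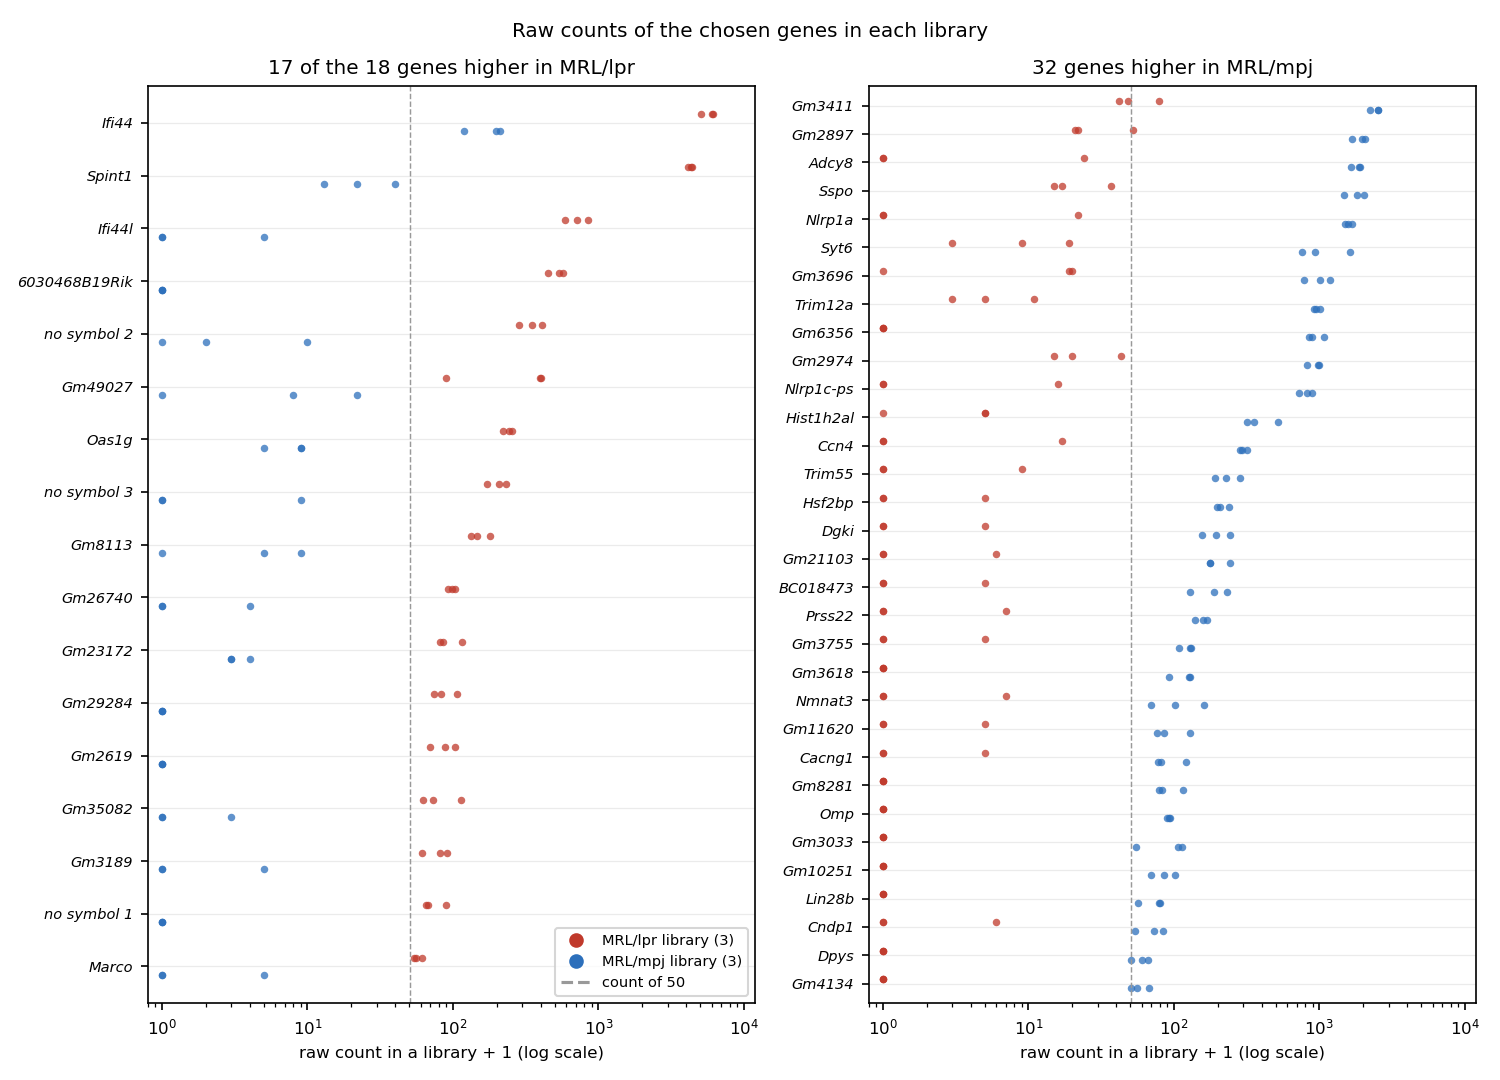
Raw counts plus 1 on a log axis for 17 of the 18 genes higher in MRL/lpr (left) and the 32 genes higher in MRL/mpj (right), with 1 point per library, red for MRL/lpr and blue for MRL/mpj, and a dashed line at a count of 50. Points at the left edge are counts of 0, and Ifi44 is the gene with the most counts in its lower strain, 118 to 209.

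Within the higher strain, the genes varied somewhat more between libraries than other genes did. The coefficient of variation had a median of 15.3% over the 18 genes higher in MRL/lpr and 16.8% over the 32 higher in MRL/mpj. For all genes that reached 50 counts throughout the strain, the medians were 11.8% in MRL/lpr and 8.44% in MRL/mpj. Those genes were not matched to the chosen ones for depth. The mean CPM of the chosen genes in their higher strain had a median of 3.75 in MRL/lpr and 4.02 in MRL/mpj. The part of counting error in the larger variation was not tested. Gm49027 varied most, at 61.6%, followed by Syt6 at 43.8% and Nmnat3 at 41.5%. Levels per length of transcript were compared by the deposited FPKM. In the higher strain, mean FPKM ran from 0.14 for Lin28b to 29.3 for Spint1. After Spint1 came Gm3411 at 22.15 ± 1.04 and Hist1h2al at 21.3 ± 5.58 in MRL/mpj (mean ± SD, n = 3). The difference between Gm3411 and Hist1h2al was smaller than the spread of Hist1h2al.

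The interferon-induced genes were the most abundant group among those higher in MRL/lpr. Type I interferon signals through a receptor and STAT factors to a complex that binds the interferon-stimulated response element in promoters. Ifi44 and Ifi44l are neighbouring interferon-induced genes with antiviral activity. Oas1g belongs to the oligoadenylate synthetases, which sense double-stranded RNA and activate RNase L. Ifi44 (chr3:151730922-151749960, GRCm38) had 6001, 6119 and 5079 counts in MRL/lpr against 209, 198 and 118 in MRL/mpj, a 33.8-fold difference of mean CPM. It was the gene nearest to the fold limit but one, and it was still expressed in every MRL/mpj library. Ifi44l, less than 9 kb upstream of it, had 847, 716 and 592 counts against 0, 4 and 0, a 544-fold difference (interval 218 to 2053) that rests on the 4 counts of MRL/mpj replicate 2. Without that library it was at least 251-fold higher in MRL/lpr. Oas1g (chr5:120876142-120887613) had 253, 242 and 218 counts against 8, 8 and 4, a 36.8-fold difference. No MRL/mpj library overlapped an MRL/lpr library for any of these genes or for any other of the 50. The limits on fold and count favour this outcome in chosen genes. Over all tested genes, the libraries of the strains did not overlap in 41.8%.

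The last 150 bases before the RefSeq starts of these 3 genes are shown because these neighbours in function were high together in MRL/lpr. RefSeq promoters on GRCm38.p6 were available for 21 of the 50 genes. RefSeq starts can differ from those of GENCODE, and the stretch shown for Ifi44 reaches into the gene as GENCODE places it. Capitals mark each match, on either strand, to GAAANNGAA, letters found in many of these elements.
Ifi44 (chr3:151749911-151750060, minus strand): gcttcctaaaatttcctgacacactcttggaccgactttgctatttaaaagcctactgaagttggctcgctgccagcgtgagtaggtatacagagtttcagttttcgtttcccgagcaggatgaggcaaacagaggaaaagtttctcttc
Ifi44l (chr3:151762892-151763041, minus strand): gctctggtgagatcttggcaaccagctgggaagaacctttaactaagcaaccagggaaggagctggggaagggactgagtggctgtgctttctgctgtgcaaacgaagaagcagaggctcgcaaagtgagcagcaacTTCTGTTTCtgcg
Oas1g (chr5:120887614-120887763, minus strand): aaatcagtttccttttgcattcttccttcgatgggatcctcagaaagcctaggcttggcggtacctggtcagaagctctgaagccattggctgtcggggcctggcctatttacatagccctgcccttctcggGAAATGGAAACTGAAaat
Oas1g held 2 overlapping matches just before its start, Ifi44l held 1, and these letters did not occur in the stretch shown for Ifi44. In the 250 bases before each start, 7.13% of 32851 promoters held GAAANNGAA. Of the 21 genes of the set with a promoter, 5 held it in any promoter, as did 7 of 12 genes on the list of interferon-induced genes that follows. The 32851 promoters belong to 27025 genes, so the share of promoters and these counts of genes differ in unit. A match is a description of the letters and not a measured binding site.

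Other interferon-induced genes, which took no part in the choice, moved in the same direction. On a list of 16, Ifi44 and Ifi44l were members of the set, and 12 of the other 14 were called higher and none lower, against 4.67% of all tested genes higher. The median log2 fold change of those 14 was 1.59, and it was 1.47 with library size scaling, which changed no sign. Ifit3, which binds foreign RNA with its relatives, rose by 3.30 on the log2 scale (SE 0.11, adjusted p = 1.77e-07 from edgeR). Irf7, the factor that amplifies interferon production, rose by 2.86 (SE 0.11, adjusted p = 4.66e-07 from edgeR). The antiviral GTPase Mx1 rose by 2.69 and the deconjugating enzyme Usp18 by 2.72. The smallest of the called values were those of Xaf1 at 1.17 and the RNA sensor Ddx58 at 1.21. Bst2 and Ifih1 did not reach the fold, with log2 fold changes of 0.96 and 0.54. Next to Oas1g, its relatives Oas1a and Oas1b rose by 2.46 and 1.27 (adjusted p of 9.21e-06 and 0.0307 from edgeR).

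Spint1 had the highest level per length of the set. It encodes a membrane-bound Kunitz-type inhibitor of serine proteases such as matriptase and the activator of hepatocyte growth factor (HGF). Spint1 (chr2:119237362-119249527) had 4342, 4128 and 4396 counts in MRL/lpr against 21, 12 and 39 in MRL/mpj. The difference of mean CPM was 187-fold (interval 147 to 237), and the highest MRL/lpr library was 1.13 times the lowest in CPM. On a list of 15 genes for Kunitz inhibitors, the proteases they block and the HGF axis, 8 genes other than Spint1 could be tested and none was called by edgeR in either direction, with 4 at an unadjusted p under 0.05 and none called by DESeq2. The related inhibitor Spint2 had a log2 fold change of -0.97 and the matriptase gene St14 one of 0.72, both short of the fold. With library size scaling 1 of the 8 was called lower. The genes on either side also missed a call, Zfyve19 at 0.60 and Rhov at -0.33 on the log2 scale.

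Marco and 6030468B19Rik were protein-coding genes at low to middle levels in MRL/lpr. Marco (chr1:120474538-120505024), a class A scavenger receptor by which macrophages take up bacteria and particles, had 53, 60 and 55 counts against 0, 0 and 4, a 44.3-fold difference (interval 16.7 to 162). It passed the count limit by 3 counts in MRL/lpr replicate 1. None of 11 other scavenger receptor genes tested was called by edgeR or DESeq2, with 6 at an unadjusted p under 0.05, and 1 was called lower with library size scaling. Msr1, another class A receptor, had a log2 fold change of 0.96, while Stab1 and Colec12 stood at -0.78 and -0.89, all short of the fold. 6030468B19Rik (chr11:117797660-117807301) had 534, 573 and 447 counts against 0 in each MRL/mpj library, which makes it at least 179-fold higher in MRL/lpr. Syngr2, a synaptic-vesicle protein relative that starts 2.37 kb after it, rose by 1.37 (SE 0.10, adjusted p = 1.23e-05 from edgeR), while Tmc8 on the other side stood at 0.21.

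Gm8113 and Gm49027 need more care. Gm8113 (chr14:43925390-43933411) had 132, 180 and 145 counts against 4, 0 and 8. It lies among the genes of eosinophil-associated ribonucleases, where Ear1 rose by 2.97 on the log2 scale and the pseudogene Ear-ps2 fell by 5.05. Gm49027 (chr5:123512082-123525488) had 402, 88 and 398 counts against 21, 0 and 7, so MRL/lpr replicate 2 was 4.79 times below the highest MRL/lpr library in CPM. It shares 61.0% of its exon bases with other annotated genes, mainly Diablo, an activator of cell death, on the same strand. Diablo itself had a log2 fold change of -0.69 and was not called. Reads in the shared exons cannot be assigned to one of these genes.

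Noncoding genes and pseudogenes higher in MRL/lpr included a cluster on chromosome 1. Gm29284 had 82, 73 and 106 counts and Gm2619, named after its values were seen, had 103, 87 and 69, against 0 in every MRL/mpj library for both. Both are pseudogenes within 337 kb of each other. The stretch that spans them holds 12 other tested genes. Of the 12, 9 were called higher in MRL/lpr and none lower, against 4.67% of all tested genes called higher. Among these, and chosen after their values were seen, A530032D15Rik rose by 3.48 on the log2 scale and Gm16025 by 4.65. The neighbours A530040E14Rik and Gm2427 rose by 2.46 and 2.06. Several of these genes overlap each other or share sequence, so their counts are not independent. Gm26740, an antisense RNA on chromosome 10, had 103, 92 and 97 counts against 0, 3 and 0. The pseudogene Hmgb1-ps8, which overlaps it on the same strand, had 33, 82 and 88 counts against 0 in each MRL/mpj library. Of the genes that flank Gm26740, C920009B18Rik rose by 1.71 and Gm4895 was not called, at a log2 fold change of -0.39. The small nucleolar RNA Gm23172 lies inside Mertk, the receptor for the removal of dead cells, and had 84, 115 and 80 counts against 2, 2 and 3. Mertk was not called, with a log2 fold change of -0.16 and at least 33873 counts in each library. Next to the pseudogene Gm3189, named after its values were seen, Gm44580 had 38, 37 and 47 counts against 0. Of the identifiers without a match, ENSMUSG00000118607 had 408, 349 and 283 counts against 1, 9 and 0, and ENSMUSG00000118590 had 232, 206 and 170 against 0, 8 and 0.

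Among the genes higher in MRL/mpj, Nlrp1a and Nlrp1c-ps stood side by side on chromosome 11. Nlrp1 proteins are sensors that assemble an inflammasome and activate caspase-1, and mouse strains carry different copies of the gene. Nlrp1a (chr11:71092236-71144704) had 0, 0 and 21 counts in MRL/lpr against 1680, 1505 and 1578 in MRL/mpj, a 210-fold difference (interval 143 to 354). Without MRL/lpr replicate 3, which held all 21 residual counts, Nlrp1a was at least 520-fold higher in MRL/mpj. The pseudogene Nlrp1c-ps (chr11:71242430-71285232) had 15, 0 and 0 counts against 727, 819 and 891, a 159-fold difference, or at least 259-fold without MRL/lpr replicate 1. Both were near zero in the same strain, with coefficients of variation of 4.37% and 9.96% in MRL/mpj. Nlrp1b, which lies between them, had 1101, 1052 and 971 counts against 740, 640 and 422. Its log2 fold change of 0.97 (SE 0.19, adjusted p = 0.00616 from edgeR) was opposite in sign and just short of the fold. Windows of 75 bases found in no other annotated transcript made up 99.3% of Nlrp1a, 100% of Nlrp1c-ps and 99.6% of Nlrp1b. Summed over the 3 genes, MRL/lpr reached 22.3 ± 0.8 CPM and MRL/mpj 61.2 ± 2.9 CPM (SD, n = 3).

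Trim12a, a relative of the retroviral restriction factor Trim5, showed the same kind of split within its family. Trim12a (chr7:104299894-104315466) had 10, 4 and 2 counts in MRL/lpr against 1009, 914 and 945 in MRL/mpj, a 175-fold difference (interval 106 to 303). Its nearest relative Trim12c rose by 1.01 on the log2 scale (SE 0.11, adjusted p = 1.92e-04 from edgeR), which became 0.89 and no call with library size scaling. On either side of Trim12a, Trim5 fell by 3.51 and Trim34b rose by 2.05. Trim5 had 65, 25 and 42 counts against 589, 484 and 628, and Trim34b had 560, 636 and 513 against 168, 145 and 151. Both flanks kept their direction with library size scaling, but the direction was not shared along the cluster.

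Hist1h2al, annotated as a processed pseudogene of the replication-dependent histone H2A genes, had 4, 0 and 4 counts against 516, 355 and 318. Of 7 tested relatives on chromosome 13, 2 were called higher in MRL/lpr and none lower, against 4.67% of all tested genes called higher. Hist1h2ad rose by 4.09 on the log2 scale, with 185, 234 and 215 counts against 10, 10 and 22, and Hist1h2ae rose by 1.75. Only 54.3% of the windows of Hist1h2al and 34.5% of those of Hist1h2ad were their own. The 14 relatives together summed to 13.6 ± 1.0 CPM in MRL/lpr and 9.74 ± 0.36 CPM in MRL/mpj (SD, n = 3).

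The largest group lay at the start of chromosome 14. It holds many closely related gene copies, most of them with predicted names only. Of the 32 genes higher in MRL/mpj, 11 lay on chromosome 14, which holds 3.83% of all tested genes. The first and last of the 11 bound a stretch of 4.40 Mb, from 3049285 to 7450917 (GRCm38). Gm3411 (chr14:6259747-6287250) had the most counts, 2522, 2242 and 2511 in MRL/mpj against 78, 47 and 41 in MRL/lpr, a 42.4-fold difference. Gm2897 had 1966, 1681 and 2057 counts against 21, 51 and 20, and Gm2974 had 982, 827 and 994 against 42, 19 and 14. Gm3696 followed with 1010, 788 and 1190 counts against 19, 18 and 0. In Gm6356, 887, 1078 and 845 counts stood against 0 in each MRL/lpr library, which makes it at least 301-fold higher in MRL/mpj. Gm6356 was also the one of the 11 with the most sequence of its own, 66.3% of windows of 75 bases found in no other annotated transcript. Gm21103 had 175, 175 and 241 counts against 5, 0 and 0, and Gm3755 had 129, 107 and 131 against 0, 4 and 0. The last 4 genes, Gm3618, Gm3033, Gm8281 and Gm10251, had 54 to 127 counts in the MRL/mpj libraries and 0 in every MRL/lpr library.

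The likeness of these copies can be read from the sequence before their annotated starts. Stretches of up to 74 bases are shown for 3 copies of the set (Gm2974, Gm3411 and Gm3696) and for 2 copies that were not chosen (Gm3636 and Gm3667), with the longest run that all 5 share within the 250 bases searched in capitals. In Gm3411 the run begins at the edge of those bases, so the shared stretch may be longer.
Gm2974 (chr14:4182350-4182423, plus strand): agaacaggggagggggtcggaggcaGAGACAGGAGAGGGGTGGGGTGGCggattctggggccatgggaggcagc
Gm3411 (chr14:6287452-6287500, minus strand): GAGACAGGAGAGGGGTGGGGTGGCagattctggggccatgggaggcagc
Gm3696 (chr14:7105606-7105679, minus strand): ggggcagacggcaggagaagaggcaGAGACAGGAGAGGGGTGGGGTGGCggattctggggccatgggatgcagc
Gm3636 (chr14:6757182-6757255, minus strand): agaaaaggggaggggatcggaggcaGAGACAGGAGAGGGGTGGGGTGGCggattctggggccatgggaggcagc
Gm3667 (chr14:6890056-6890129, minus strand): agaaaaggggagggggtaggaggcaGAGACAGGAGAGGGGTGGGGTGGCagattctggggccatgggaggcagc
The run of 24 bases occurred before the start of 13 genes in all, each on chromosome 14, in 16 of 32851 promoters. The copy Gm3636 went against the set, with 1305, 1178 and 838 counts in MRL/lpr against 523, 686 and 498 in MRL/mpj, and it rose by 1.12 on the log2 scale (SE 0.17, adjusted p = 0.00155 from edgeR). Gm3667 fell by 1.14.

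**Figure D2:**
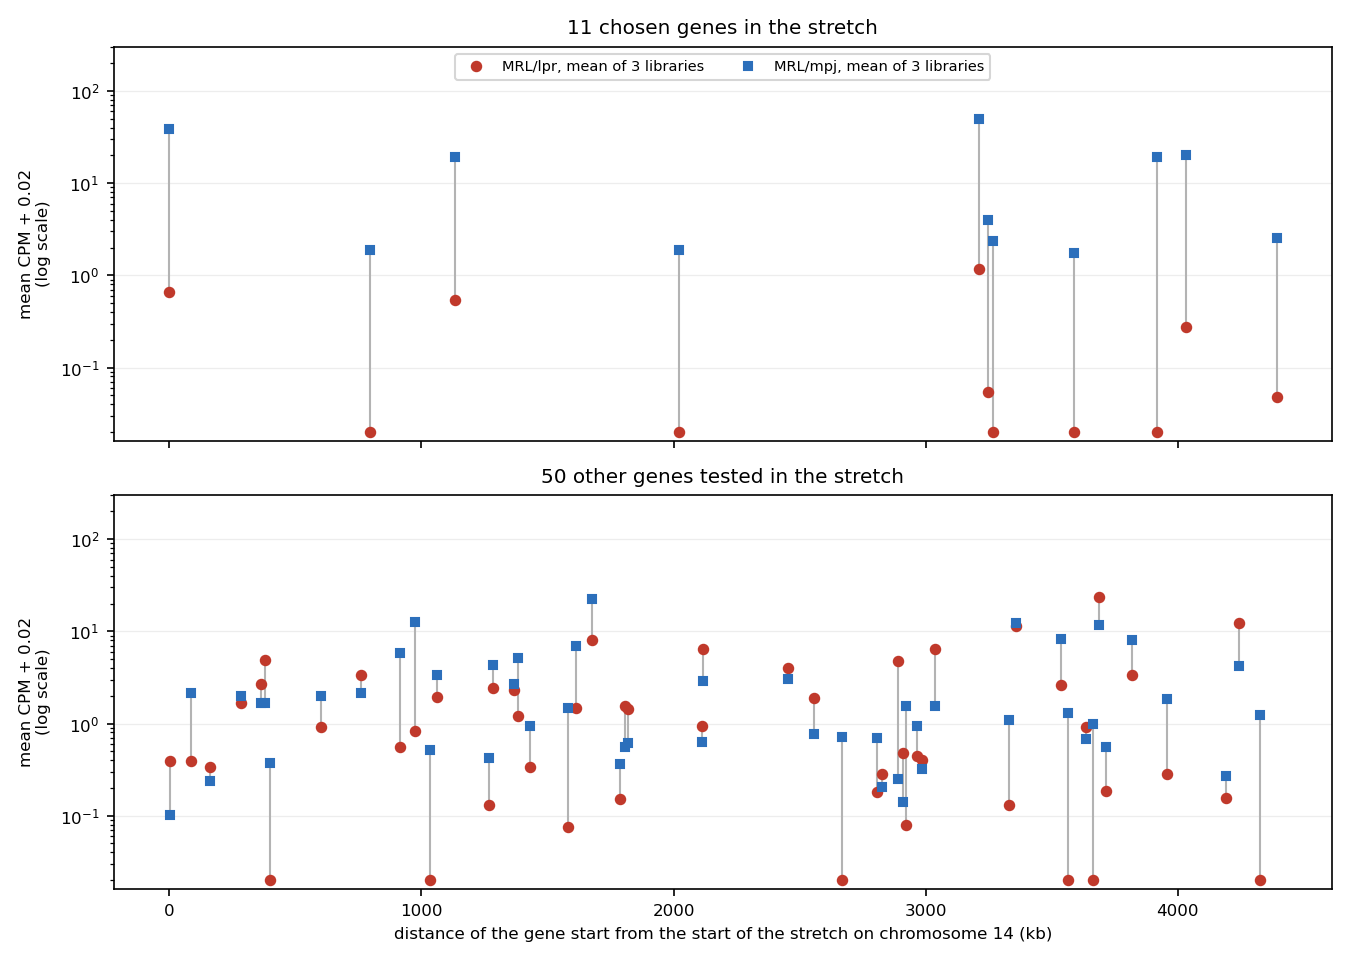
Mean CPM plus 0.02 on a log axis for the genes of the chromosome 14 stretch, against the distance of each gene start from the start of the stretch in kb, with red circles for MRL/lpr and blue squares for MRL/mpj (mean of 3 libraries each) joined by a line for each gene. All 11 chosen genes (upper panel) are higher in MRL/mpj, and the 50 other tested genes (lower panel) go both ways.

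The other genes of that stretch were not all of one direction. Of 50 tested there, 24 (48.0%) were called, 17 lower and 7 higher in MRL/lpr, against 8.34% of all tested genes called. The median log2 fold change of the 50 was -0.87. By protein sequence, 9 of the 11 chosen genes belonged to a family of 91 annotated genes, all on chromosome 14. Gm3618 and Gm10251 belonged to a separate family of 3 genes. Of the 82 other copies in the family of 91, 41 could be tested. Of the 41, 6 were called higher and 16 lower, against 4.67% and 3.66% of all tested genes. Among genes named after their values were seen, Gm3460 had 80, 68 and 38 counts in MRL/mpj against 0 throughout MRL/lpr, and missed the choice by its count in replicate 3. Gm10339, Gm8050 and Gm3373 were also at 0 throughout MRL/lpr, with 32 to 77 counts in MRL/mpj. Gm3558 fell by 3.90 on the log2 scale and Gm5796 by 3.83. In the other direction, Gm3248 rose by 4.51, Gm3468 by 2.21, Gm3005 by 1.69 and Gm3739 by 1.65.

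Counts were also summed over the family of 91, since reads can match several copies. The 9 chosen copies summed to 2.65 ± 0.91 CPM in MRL/lpr and 157 ± 8.0 CPM in MRL/mpj (SD, n = 3). The 82 others summed to 134 ± 22.3 CPM in MRL/lpr and 179 ± 8.4 CPM in MRL/mpj, and those libraries did not overlap either, from 108 to 148 against 169 to 185. All 91 copies together summed to 137 ± 23.1 CPM against 336 ± 10.1 CPM, a 2.46-fold difference. An exact two-sided permutation test on the sum of the other copies gave p = 0.1, the smallest value that 3 libraries against 3 allow. How the authors' counting treated reads that match several copies is not given in the sources used here. Of the 11 genes with fewer than 50% of their windows to themselves, 10 lie in this stretch.

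**Figure D3:**
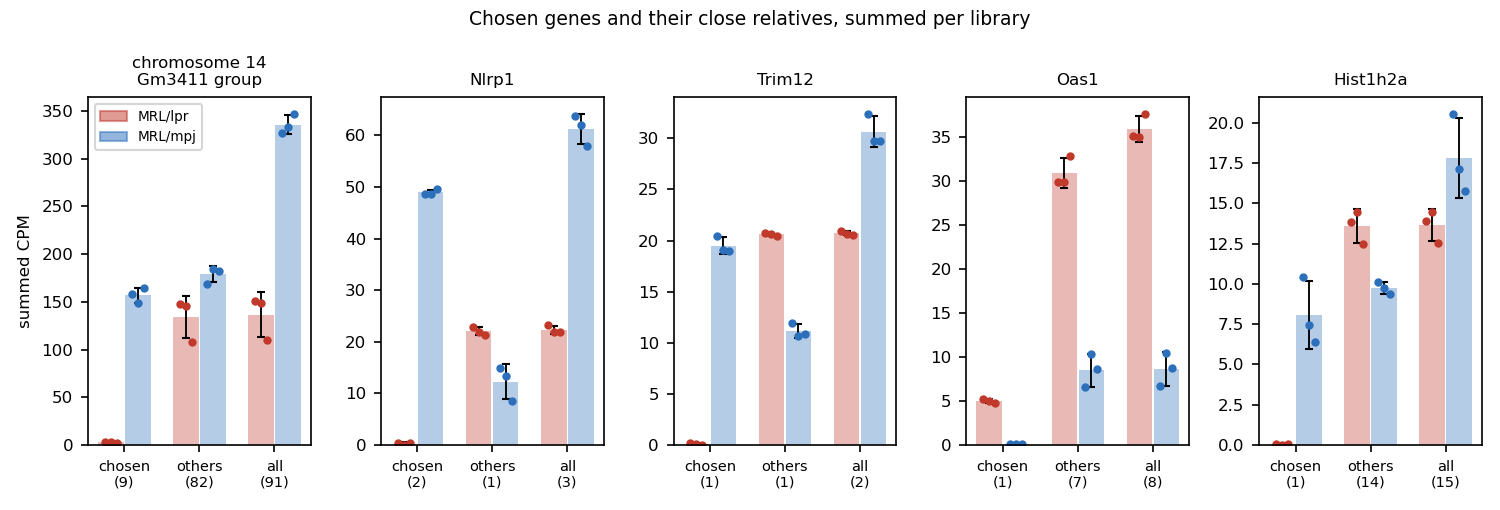
Summed CPM per library (points), mean (bars) and SD (error bars, n = 3) of the chosen genes, of their close relatives and of both, for 5 families, red for MRL/lpr and blue for MRL/mpj, with the number of genes in parentheses. In the Nlrp1, Trim12 and Hist1h2a families the relatives are higher in MRL/lpr while the chosen genes are near 0 there, and in the Oas1 family both are higher in MRL/lpr.

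Adcy8, Syt6, Sspo, Dgki and Omp were also higher in MRL/mpj, and are described together only because they are best known from neurons or the ventricle wall. Adcy8 (chr15:64697084-64922296), a calcium-stimulated adenylyl cyclase, had 0, 0 and 23 counts in MRL/lpr against 1906, 1655 and 1882 in MRL/mpj, a 219-fold difference (interval 152 to 360). Without MRL/lpr replicate 3, which held all 23 residual counts, it was at least 593-fold higher in MRL/mpj. Its neighbours Asap1 and Efr3a, at log2 fold changes of 0.46 and -0.04, were not called. Syt6 (chr3:103575231-103645569), a synaptotagmin, had 2, 8 and 18 counts against 753, 1622 and 936. Replicate 2 of MRL/mpj was thus more than 1.5 times above the other MRL/mpj libraries. Sspo (chr6:48448229-48501250) encodes SCO-spondin, the giant protein that the subcommissural organ secretes into the cerebrospinal fluid. It had 16, 36 and 14 counts against 1476, 1806 and 2011, a 77.8-fold difference (interval 60.7 to 100.1). Zfp467 and Zfp862-ps, 2.40 and 3.09 kb away on either side, stood at log2 fold changes of 0.13 and -0.11. Dgki, a diacylglycerol kinase, had 0, 4 and 0 counts against 194, 243 and 154. Its neighbour Ptn, the growth factor pleiotrophin, fell by 1.17 on the log2 scale (SE 0.11, adjusted p = 7.67e-05 from edgeR). Creb3l2, on the other side of Dgki, was not called, at a log2 fold change of -0.50. Omp, the olfactory marker protein, had 88, 93 and 91 counts against 0 in each MRL/lpr library. It lies inside Capn5, a protease gene on the same strand, which was not called at 0.13.

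Some markers of other brain cells were also lower in MRL/lpr. Of 10 markers of ependyma and choroid plexus, 6 were called lower in MRL/lpr and none higher, against 3.66% of all tested genes called lower. The 6 were Ttr, Kl, Folr1, Clic6, Kcnj13 and Otx2. Foxj1, Ccdc153, Tmem212 and Rarres2 were not called, at log2 fold changes of -0.43, 0.33, 0.16 and -0.28. The summed level of the 10 was 356 to 372 CPM in the MRL/lpr libraries and 1119 to 1204 CPM in the MRL/mpj libraries. Ttr held the most counts of the list in every library, and none of the 10 was at 0 in every library. Ttr, the transthyretin gene of the choroid plexus, fell by 1.64 on the log2 scale, and Kcnj13 fell by 2.06. Of 8 neuronal markers, 2 were called lower, Snap25 by 1.35 and Syt1 by 1.30, and their summed level was 24.1 to 26.9 CPM against 42.7 to 50.3 CPM. The astrocyte sum was 111 to 158 CPM against 197 to 205 CPM, with none of 8 markers called by edgeR or DESeq2 and 2 at an unadjusted p under 0.05, and 1 called lower with library size scaling. The part of such cells in the levels of these genes was not tested. On a list of secreted matrix proteins beside Sspo, 9 others could be tested. Rspo1 fell by 2.67, Thbs2 rose by 1.51 and Spon2, with 10 to 12 counts in MRL/lpr and 0 in MRL/mpj, was called higher. With library size scaling, another of the 9 was called lower.

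Ccn4 (chr15:66891320-66923201), a matrix protein of the Wnt pathway, had 16, 0 and 0 counts against 292, 283 and 319, a 54.8-fold difference that became at least 94.8-fold without MRL/lpr replicate 1. Cacng1, a calcium channel subunit of skeletal muscle, had 0, 0 and 4 counts against 121, 77 and 80, and Trim55, a RING-finger protein of the sarcomere, had 0, 0 and 8 against 282, 227 and 190. Lin28b, which blocks maturation of the let-7 microRNAs, had 56, 78 and 79 counts against 0 in each MRL/lpr library. It had the lowest level per length of the set. Hsf2bp, a partner of BRCA2 in meiosis, had 4, 0 and 0 counts against 198, 206 and 237. Every 75-base window of these 5 genes was their own.

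The remaining protein-coding genes encode enzymes. Dpys, which acts in the breakdown of pyrimidines, had 59, 65 and 50 counts against 0. Dcstamp, a fusion protein of osteoclasts that ends 7.55 kb away, was low in the same strain, with 3, 4 and 8 counts against 98, 149 and 109. It fell by 4.35 on the log2 scale (SE 0.51, adjusted p = 2.95e-04 from edgeR). Lrp12, on the other side of Dpys, was not called, at a log2 fold change of -0.46. The serine protease gene Prss22 had 0, 0 and 6 counts against 158, 139 and 168. Its neighbour Dcpp2, 92.7 kb away, likewise had 82, 29 and 84 counts in MRL/mpj against 0 throughout MRL/lpr. Kctd5, 49.6 kb away on the other side, was not called, at a log2 fold change of -0.20. Cndp1, the carnosine dipeptidase of serum, had 0, 5 and 0 counts against 72, 53 and 83. Nmnat3, an enzyme of NAD synthesis in mitochondria, had 0, 6 and 0 counts against 159, 100 and 69. Of the remaining noncoding genes, the antisense RNA BC018473 had 4, 0 and 0 counts against 230, 127 and 189, the pseudogene Gm11620 had 0, 4 and 0 against 75, 85 and 129, and the pseudogene Gm4134 had 55, 66 and 50 against 0.

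Genes that flank the set on its chromosomes did not enter the choice, so they could be tested. The nearest tested gene on each side of the 47 placed genes gave 85 different genes, at a median distance of 37.6 kb. Of these, 22 (25.9%) were called, 10 higher and 12 lower in MRL/lpr, against 8.34% of all tested genes. The direction was that of the neighbouring chosen gene in 18 of the 22. The opposite direction was seen in 4, among them Ear-ps2, Gm3468 and Trim34b. The median log2 fold change of the 85 was -0.02, against -0.01 over all tested genes. With the chromosome 14 stretch left out, 15 of 69 flanks (21.7%) were called. Within 250 kb of a chosen gene, 67 of 343 tested genes (19.5%) were called. Among 18 tested genes whose span overlaps that of a chosen gene, 6 were called, 5 of them in the chromosome 1 cluster and the sixth Hmgb1-ps8. Counts of overlapping genes can hold the same reads. Some flanks are relatives of the chosen gene as well, such as Oas1a and the chromosome 14 copies.

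Close relatives of the chosen genes took no part in the choice either. Genes with a protein at least 80% identical to that of a chosen gene, or with the same symbol stem, numbered 53 among tested genes. Of these, 27 (50.9%) were called, 11 higher and 16 lower, against 8.34% of all tested genes called. The median log2 fold change of the 53 was -0.28. On chromosome 14, 22 of 41 were called, and on other chromosomes 5 of 12. Under 50% of the 75-base windows were the gene's own in 11 of the 47 placed genes (23.4%), against 7.22% of tested genes. All but 1 of the 11 lie in the chromosome 14 stretch, and outside it the share was 1 of 36 (2.78%). On the other side, 25 of the 47 had every window to themselves, among them Spint1, Ifi44, Ifi44l, Marco, Adcy8, Sspo and Omp.

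**Figure D4:**
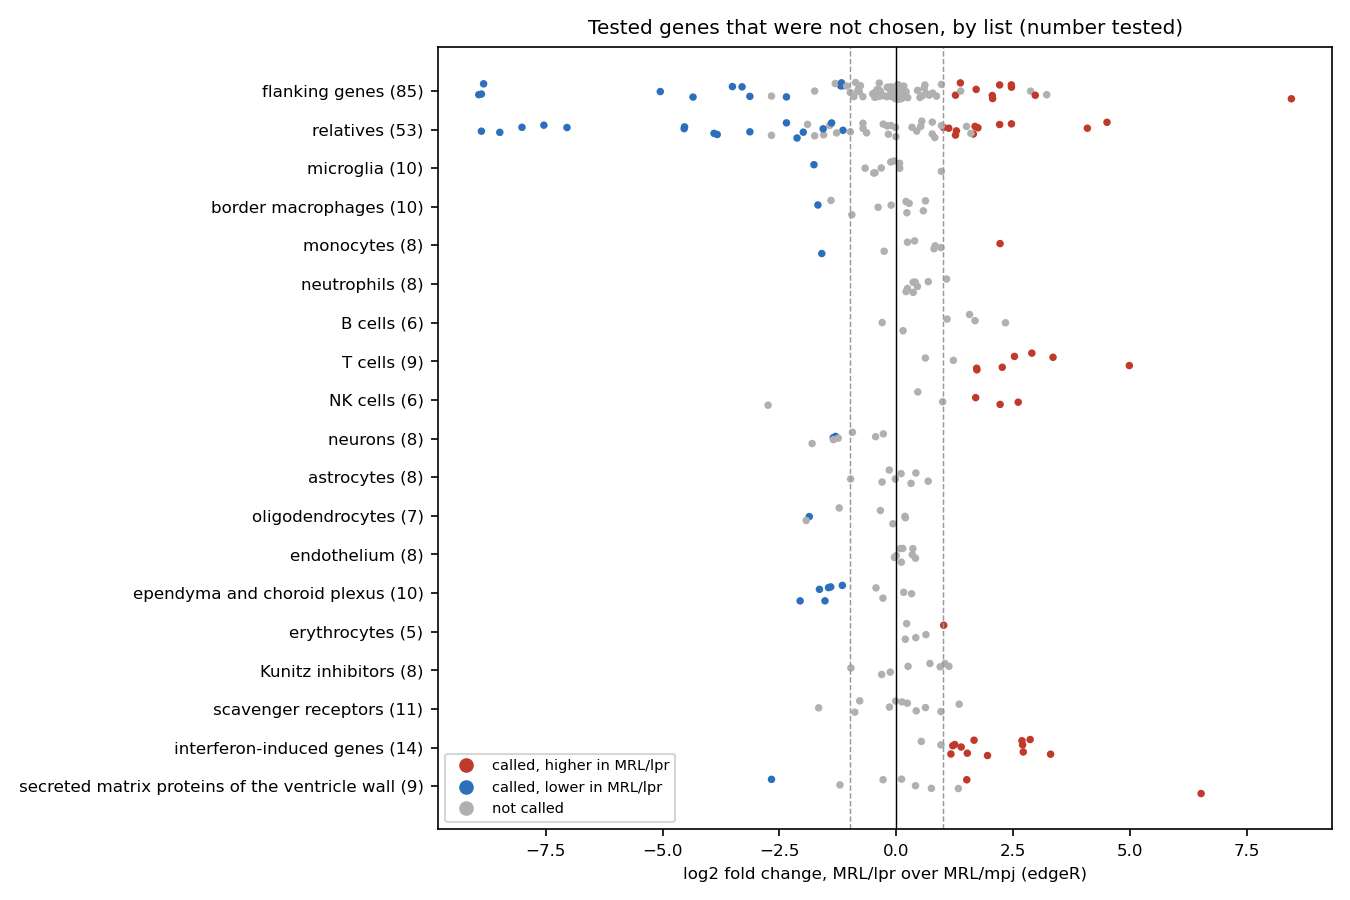
Log2 fold changes, MRL/lpr over MRL/mpj, of tested genes that were not chosen, by list, with the number tested in parentheses, called genes in red (higher) or blue (lower), the others in grey, and dashed lines at -1 and 1. The T cell and interferon lists lie to the right of 0 and 6 of the 10 ependyma and choroid plexus markers are called to the left, while flanking genes and relatives spread to both sides.

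Most T cell markers and some NK cell markers moved with the genes higher in MRL/lpr. Of 9 T cell markers, 7 were called higher and none lower, against 4.67% of all tested genes called higher. The 9 markers summed to 23.2 to 29.7 CPM in the MRL/lpr libraries and 8.21 to 8.89 CPM in the MRL/mpj libraries. Cd3e had 103, 92 and 120 counts against 2, 0 and 9, and it stood just outside the fold limit. Of 6 NK cell markers tested, 3 were called higher, with Prf1 up by 2.61, Eomes by 2.22 and Gzma by 1.70 on the log2 scale. Ncr1, Klri2 and Klrb1c were not called, at log2 fold changes of 0.99, 0.46 and -2.74. None of 6 B cell, 8 neutrophil or 8 endothelial markers was called by edgeR, with 2, 7 and 3 of them at an unadjusted p under 0.05, and DESeq2 called 1 B cell marker. The summed levels of these lists were at least 14.2, 599 and 2157 CPM in the MRL/lpr libraries. Among monocyte markers, Plac8 rose by 2.22 and Chil3 fell by 1.59, and among border macrophage markers Cbr2 fell by 1.68. The erythroid gene Alas2 rose by 1.02, which was no call with library size scaling. Whether these cells carry any of the 50 transcripts was not tested.

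Near the limits, the genes just inside the fold were Gm49027 at 33.5-fold and Ifi44 at 33.8-fold. Those just outside were BC147527 at 27.4-fold, with 0, 8 and 0 counts in MRL/lpr against 88, 75 and 60 in MRL/mpj, and Cd3e at 30.3-fold. In all, 32 genes with enough counts lay between 16-fold and 32-fold. Of the 50, 37 were past 64-fold or had no count in the lower strain. When a pair of libraries with the same number was left out and the genes were chosen on the other 4 libraries, the left-out pair could be read without having been used. Choosing without replicates 1, 2 and 3 gave 61, 70 and 63 genes. In the left-out pair, 44, 42 and 42 of them were again past 32-fold, and 59, 67 and 59 had the same direction. Where the lower library of the pair was at 0, any count in the higher one passed any fold. With at least 50 counts in the higher library asked for as well, 41, 38 and 39 were past 32-fold. Of the 61, 70 and 63 genes, 47, 47 and 45 are in the set of 50. A pair of single libraries holds few counts for most of these genes, and 52, 53 and 51 of them were past 10-fold there.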

How the data were processed

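RNA was sequenced from CD11b-selected brain cells of 6 libraries, 3 per strain, grouped by their labels. Gene counts were deposited by the authors as whole numbers without scaling, and FPKM values scaled by gene length and depth. The submitters' processing notes name cutadapt 1.9.3, HISAT2 2.0.4, Cufflinks and Cuffdiff 2.2.1, and the tool that made the counts is not given in the sources used here. GENCODE M21 on GRCm38 matched 55141 of the 55401 identifiers. Library totals of 45481609 to 49846634 counts set the precision, and intervals cover counting error only.

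The 50 genes were chosen on CPM of the library total. Members and lists were chosen with earlier results of these data known. Named genes were all protein-coding members, the 5 others with the highest mean CPM in each direction, the 2 genes on either side of the fold limit, and called flanks, relatives and listed genes. Others were named after their values were seen. Results that name certain genes, 1 of the 50 included, are not reported here. edgeR 4.0.16 (R 4.3.3) was used for tests, with filterByExpr (minimum count 10, minimum total 15), TMM, robust quasi-likelihood fits and Benjamini-Hochberg adjustment over all 19554 genes. DESeq2 1.42.0, library size scaling, no filter, a replicate block and leaving out each library were alternatives. The edgeR step was tested on simulated data. Relatives came from blastp 2.17.0 at 80% identity, and exact tests from scipy 1.17.1. The study gives 3 mice per strain, but the labels do not tie a library to an animal, so p-values measure the spread between these libraries.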

Additional observations from a re-analysis of the deposited data

How the results depend on the processing

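The number of genes chosen depended most on the count limit and the fold. A fold of 16 gave 82 genes, a minimum count of 20 gave 80 and one of 100 gave 29, against 50. A fold of 64 gave 37, TMM-scaled values 51 and FPKM 50. Leaving out each library in turn gave 53 to 61, and 43 of the 50 were chosen every time. The 7 others were Cndp1, Gm49027, Gm2974, Marco, Gm8113, Ifi44 and Oas1g. Widening the flanks to 250 kb moved the called genes from 22 of 85 tested (25.9%) to 67 of 343 (19.5%), a lower share. Over all genes, 1630 calls became 1906 with DESeq2, 1698 with library size scaling, 1601 without a filter and 1398 to 1650 without 1 library. Flanks gave 18 to 26 calls without 1 library, relatives 20 to 29 and marker lists 42 to 48. The replicate numbers did not pair the samples, since same-numbered libraries had correlations of -0.0409, -0.0202 and -0.0325 in their deviations. With the replicate block, 1422 genes, 21 flanks and 24 relatives were called. No called gene turned direction under these alternatives. Depth limits the genes near 50 counts, where the lower strain cannot be told from 0.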
